A study of Mus musculus with 8 samples.

Results

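Integrins are receptors of the cell surface, each made of an α and a β subunit, that tie a cell to the matrix around it and carry signals across the membrane. The subunits described here are 10 of those that myogenic cells are known to use, 7 α subunits (Itga3, Itga4, Itga5, Itga6, Itga7, Itga9 and Itgav) and 3 β subunits (Itgb1, Itgb3 and Itgb5), out of 55487 genes in the count table. They were selected by name, by someone who already knew the measured differences between conditions in these libraries. For this reason their fold changes and adjusted p-values are given as a description, and nothing is supported with them. All 10 had counts, and 8 passed edgeR's filter on low counts. Itga4 and Itga9 did not pass it.

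The libraries came from muscle stem cells (MuSCs) of mice labelled old, sorted by FACS and kept in growth medium for 72 h with vehicle (1% DMSO) or with NAM/PN, the combination of nicotinamide and pyridoxine, at 1 mM. The labels give that concentration for the combination, with no separate values, and do not say whether the NAM/PN cultures also held DMSO. The labels give 4 pools of 2 mice, and each pool gave 1 vehicle and 1 NAM/PN library, so a condition had 4 libraries. The mice were male C57BL/6JRj according to the methods. Both conditions came from aged mice, so age itself was not compared. The sort kept cells positive for CD34 and for integrin α7, the product of Itga7, and negative for CD31, CD11b, CD45 and Sca1. The part of this selection in the level of Itga7 was not tested. Libraries held 6472484 to 10163101 counts, and values are CPM, the counts on a gene scaled to a common library size after TMM normalization. A count of 3, taken as the floor of detection, was worth 0.280 to 0.457 CPM. Of 9 markers of MuSCs all were counted, and Pax7, the transcription factor that defines these cells, had 196 ± 36.2 CPM with vehicle and 173 ± 50.3 CPM under NAM/PN (SD, n = 4). The sum of the 9 markers was 2036 to 2235 CPM with vehicle and 1659 to 2001 CPM under NAM/PN, without overlap. Myod1 made up most of that sum, with 1366 and 1201 CPM on average, and no marker of the 7 tested was without overlap on its own. Of these 7, 6 had a log2 difference below 0, as had 6056 of 12060 tested genes, and 0 were called, where 1.28% of all tested genes were. The 2 others, Calcr and Chodl, did not pass the filter on low counts. In vehicle 1 to 4 Calcr had 0, 0, 0 and 12 counts and Chodl 1, 21, 0 and 25, and neither had a count under NAM/PN.

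In skeletal muscle, laminin of the basement membrane is bound by integrin α7β1 on the muscle cell and by the dystroglycan complex. MuSCs lie beneath that membrane, and myogenic cells also carry α3β1 and α6β1, which bind laminin as well. The αv and α5 subunits belong to receptors that read the RGD sequence of fibronectin and vitronectin, and α4 and α9 to receptors for VCAM-1 and fibronectin. Integrin β1 is the partner of α3, α4, α5, α6, α7 and α9 and also pairs with αv, whereas β3 and β5 pair with αv. Inside the cell, talin and kindlin bind the β tail and switch the receptor on, and paxillin, integrin-linked kinase and focal adhesion kinase gather at the adhesion.

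The α subunits share a short stretch of the tail just inside the membrane, which helps to keep the receptor inactive. The coding strand around it is shown for the 4 α subunits with the most counts, since it shows how alike they are at this point and since the level of Itga3, Itga6, Itga7 and Itgav is what the results turn on. Each sequence runs 5′ to 3′ from GENCODE M21 transcripts on GRCm38, with the 15 bases of the shared stretch in capitals and 21 coding bases on each side. Each spans an exon junction, so the genomic interval is longer than the sequence.
Itga3 (chr11:95046552-95046938, minus strand, exons 24 and 25 of 26): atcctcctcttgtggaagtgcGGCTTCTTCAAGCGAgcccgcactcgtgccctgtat
Itga6 (chr2:71849489-71855892, plus strand, exons 25 and 26 of 26): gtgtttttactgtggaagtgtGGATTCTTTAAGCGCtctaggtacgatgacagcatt
Itga7 (chr10:128954054-128957659, plus strand, exons 24 and 25 of 25): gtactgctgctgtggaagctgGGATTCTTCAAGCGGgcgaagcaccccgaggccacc
Itgav (chr2:83802985-83803278, plus strand, exons 29 and 30 of 30): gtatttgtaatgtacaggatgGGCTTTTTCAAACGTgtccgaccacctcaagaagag
Within the capitals, Itga3 matched Itga7 at 13 of 15 bases and Itga6 at 12, and Itgav matched Itga6 at 10. Itga3, Itga6 and Itga7 are known to have splice forms with other tails, and the counts are per gene, so splice forms were not examined.

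Itga3, a laminin-binding α subunit, was the member with the largest measured difference. The gene (ENSMUSG00000001507) lies at chr11:95044474-95076801 on the minus strand. It had 14.6, 21.1, 13.2 and 18.2 CPM in vehicle libraries 1 to 4 and 52.7, 71.5, 48.0 and 112 CPM in NAM/PN libraries 1 to 4. All 4 NAM/PN libraries were above all 4 vehicle libraries, and NAM/PN 4 was the highest. CT010467.1, a gene annotated as ribosomal RNA, took 18.7% of the counts in vehicle 3, which had the least Itga3, and 5.22% in NAM/PN 4, against 9.09% to 11.6% in the other libraries, and its part in the result was not tested. The mean was 16.8 ± 3.57 CPM with vehicle and 71.1 ± 29.3 CPM under NAM/PN (SD, n = 4), higher in 4 of 4 pools. By edgeR's quasi-likelihood test (p-values adjusted by Benjamini and Hochberg's method over 12060 genes), Itga3 rose by 2.09 on the log2 scale (SE 0.31, 95% interval 1.44 to 2.73, adjusted p = 0.000956), a 4.24-fold difference. Among the tested genes of its library, Itga3 stood at percentile 35.6 to 46.2 with vehicle and 68.0 to 85.7 under NAM/PN.

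It was the only called member. With an adjusted p under 0.05, 1 of the 8 tested subunits was higher and 0 were lower, where 1.28% of all tested genes were called, 0.282% as higher and 0.995% as lower. The adjusted p of the 7 tested members that were not called ranged from 0.276 to 0.986 in edgeR's quasi-likelihood test. Since the members were chosen on this contrast, nothing is read from that share.

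Itga6, another laminin-binding subunit, was the second member whose conditions did not overlap. It had 25.9, 34.4, 33.7 and 32.9 CPM with vehicle and 98.5, 50.0, 41.9 and 38.8 CPM under NAM/PN. NAM/PN 1 stood far above the other NAM/PN libraries, of which the lowest was close to the highest vehicle library. The means were 31.7 ± 3.91 and 57.3 ± 27.9 CPM (SD, n = 4), and the log2 difference of 0.85 (SE 0.30, 95% interval 0.22 to 1.49) did not pass the threshold in edgeR's quasi-likelihood test (Benjamini-Hochberg adjusted p = 0.276). Without the NAM/PN 1 library the log2 difference was 0.46. Complete separation under NAM/PN above vehicle was found for 2 of the 8 tested members, Itga3 and Itga6, and for 2.79% of all tested genes.

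Itga7 codes for the main laminin-binding α subunit of muscle, whose loss causes a muscular dystrophy. It had 249.6, 292.4, 362.4 and 330.9 CPM with vehicle and 238.3, 292.6, 299.1 and 303.5 CPM under NAM/PN. The conditions overlapped, with vehicle 3 and 4 above every NAM/PN library and NAM/PN 1 below every vehicle library. The log2 difference was -0.12 (SE 0.17, 95% interval -0.48 to 0.23), so a change in either direction of the size measured for Itga3 lay outside the interval.

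Itgb1, which codes for the common β partner, had the highest level of the 10 genes in both conditions. It had 372.9, 449.1, 515.0 and 461.3 CPM with vehicle and 464.0, 465.1, 413.9 and 407.0 CPM under NAM/PN. Every NAM/PN library lay within the range of the vehicle libraries. The log2 difference was -0.039 (SE 0.15, 95% interval -0.36 to 0.29), and its sign turned to positive on library totals without normalization factors, at 0.021.

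Itgav, the α subunit of the vitronectin receptors, had 22.1, 42.9, 57.3 and 35.1 CPM with vehicle and 54.8, 56.8, 33.7 and 39.8 CPM under NAM/PN. The 2 conditions overlapped, and it was lower under NAM/PN in pool 3. Its log2 difference was 0.23 (SE 0.30, 95% interval -0.40 to 0.87).

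Itgb5, a β partner of αv, had 6.2, 5.7, 3.5 and 10.99 CPM with vehicle and 12.6, 4.9, 13.7 and 12.3 CPM under NAM/PN. The NAM/PN libraries held both the highest values and a value below 3 of the 4 vehicle libraries. Itga5, the α subunit of the classical fibronectin receptor, had between 1.07 and 6.53 CPM with vehicle and between 2.24 and 7.38 CPM under NAM/PN. The log2 difference was 0.72 for Itgb5 (SE 0.66) and 0.40 for Itga5 (SE 1.15), and a change of 2-fold was inside both 95% intervals, which ran from -0.66 to 2.10 and from -2.01 to 2.80.

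The remaining members were counted in some libraries and not in others. Itgb3, the β subunit of the classical vitronectin receptor, had 0, 0, 43 and 20 counts with vehicle and 12, 0, 0 and 21 counts under NAM/PN. Itga9 had 36, 0, 18 and 1 counts with vehicle and 0, 14, 0 and 0 under NAM/PN. Itga4 had 6, 0, 0 and 0 counts with vehicle and 0, 10, 0 and 0 under NAM/PN. The spread between libraries of a condition ran from 0 to the highest count of that condition for each of these genes, and Itga4 and Itga9 were not tested. A count of 0 allows up to 3 counts in that library.

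**Figure D1:**
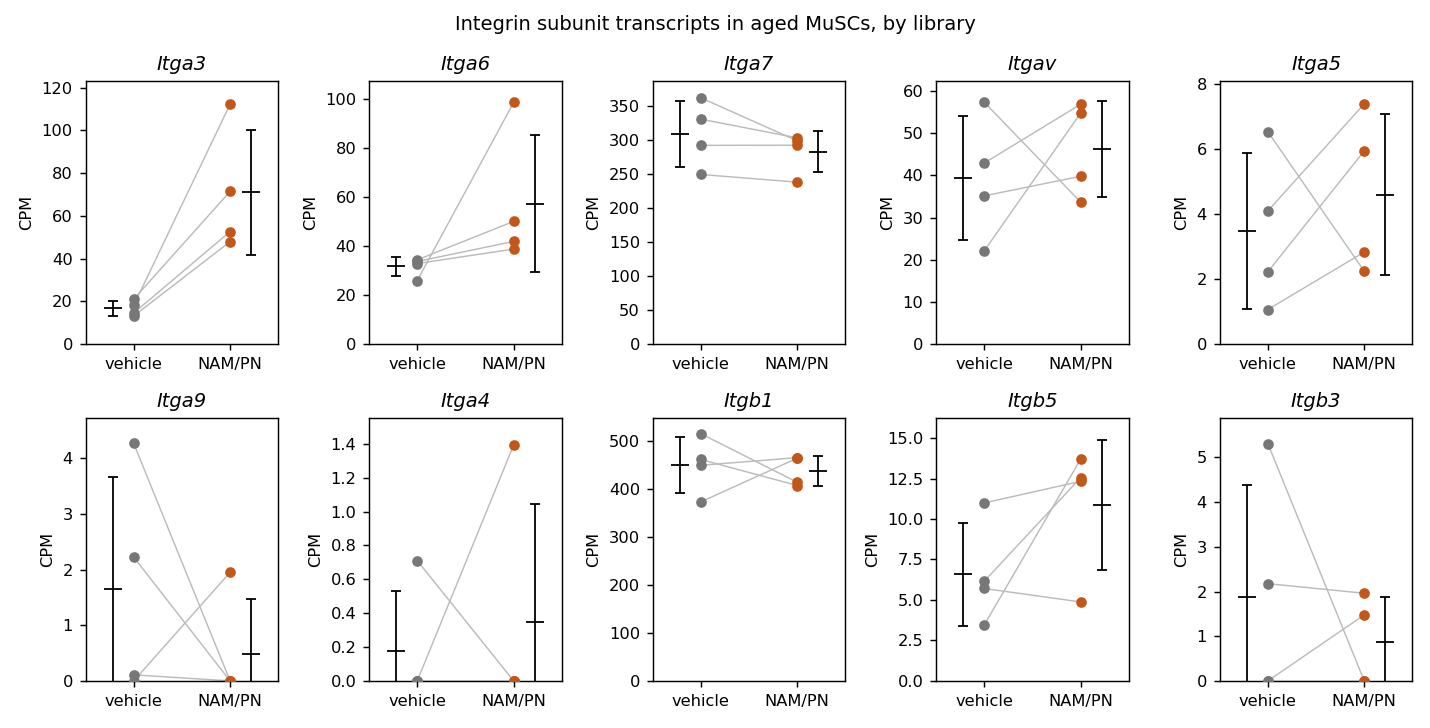
CPM of the 10 integrin subunit genes in each library (vertical axes from 0, a scale for each gene), with vehicle in grey and NAM/PN in orange, lines joining libraries of the same pool, and bars giving the mean ± SD of 4 libraries. Itga3 went from 16.8 to 71.1 CPM without overlap, while Itga7 and Itgb1 overlapped between conditions.

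In the vehicle condition the order by mean was Itgb1, Itga7, Itgav, Itga6, Itga3, Itgb5, Itga5, Itgb3, Itga9 and Itga4. The 4 libraries of Itgav overlapped those of Itga6, and from Itgb5 downwards each neighbour overlapped the next. In the NAM/PN condition the order was Itgb1, Itga7, Itga3, Itga6, Itgav, Itgb5, Itga5, Itgb3, Itga9 and Itga4. Itga3 moved from rank 5 to rank 3, although it still overlapped Itga6, which in turn overlapped Itgav. These libraries count the 3′ ends of transcripts, so a longer transcript does not give more reads by design. Divided by the longest annotated transcript all the same, the vehicle means were 118 CPM per kb for Itgb1, 76.8 for Itga7, 7.36 for Itga6, 5.58 for Itgav and 3.45 for Itga3, and only the neighbours Itga6 and Itgav exchanged places. Itgb1 and Itga7 together made up 88.2% of the members' summed mean level with vehicle and 79.0% under NAM/PN. The summed level of the 10 genes was 860 ± 124 CPM with vehicle and 913 ± 40.4 CPM under NAM/PN (SD, n = 4), with overlapping libraries.

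The makeup of the α subunit transcripts differed between the conditions, as follows from the values above. Itga7 took 76.9% ± 1.99 of the counts on the 7 α subunit genes with vehicle and 61.2% ± 6.74 under NAM/PN (SD, n = 4). Its share was 74.0% to 78.4% in the vehicle libraries and 53.3% to 69.8% in the NAM/PN libraries, without overlap. The share of Itga3 was 4.25% ± 1.06 and 15.1% ± 5.25, and that of Itga6 was 7.94% ± 0.651 and 12.5% ± 6.45. The libraries differed in which of these was larger, since Itga6 led Itga3 in NAM/PN 1 and Itga3 led Itga6 in NAM/PN 4. For each read of Itga3 there were 13.9 to 27.4 reads of Itga7 with vehicle and 2.70 to 6.23 under NAM/PN.

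Laminin-binding subunits as a class kept a similar share. Itga3, Itga6 and Itga7 together held 89.1% ± 1.93 of α subunit counts with vehicle and 88.8% ± 2.72 under NAM/PN (SD, n = 4). The RGD-reading subunits Itgav and Itga5 held 10.4% ± 2.40 and 10.98% ± 2.49. For each read on the α subunits that pair with β1 and no other β subunit described here, there were 1.19 to 1.28 reads of Itgb1 with vehicle and 0.891 to 1.18 under NAM/PN. The closest libraries of the 2 conditions were 1.187 and 1.183, and Itgb1 reads outnumbered those of these α subunits in all libraries but NAM/PN 4. Itga6 is counted here among the partners of Itgb1 but also pairs with β4, whose gene Itgb4 had 52.2 ± 8.64 CPM with vehicle and 66.1 ± 17.2 CPM under NAM/PN (SD, n = 4). These shares are of reads, and protein at the cell surface was not measured here.

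**Figure D2:**
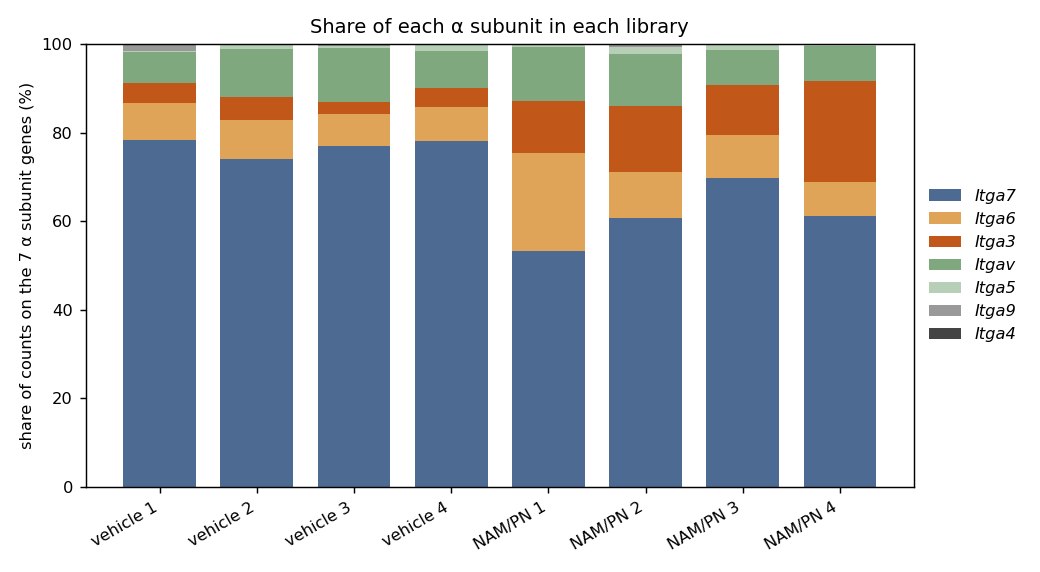
Share of each α subunit gene in the counts on the 7 α subunit genes (vertical axis, percent), stacked for each of the 8 libraries. The mean share of Itga7 was 76.9% with vehicle and 61.2% under NAM/PN, that of Itga3 was 4.25% and 15.1%, and the 3 laminin-binding subunits together held 89.1% and 88.8%.

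Levels of other cell types' markers were set beside these values. Of 10 endothelial markers 4 were at 0 in all libraries, and the summed level was 3.46 to 21.8 CPM with vehicle and 9.85 to 29.6 CPM under NAM/PN. Of 10 leukocyte and platelet markers 8 were at 0, with sums of 0.979 to 9.39 and 3.50 to 8.74 CPM, and the sums of 6 Schwann cell markers overlapped as well, at 5.93 to 44.5 and 21.9 to 43.3 CPM. Mural cell markers, of which Acta2 is also expressed by myogenic cells, summed to 285 to 611 CPM with vehicle and 95.9 to 156 CPM under NAM/PN. Acta2 made up most of that sum, with 368 ± 125 and 70.5 ± 35.1 CPM (SD, n = 4), and was the called gene of the 3 tested, where 0.995% of all tested genes were called lower (log2 difference -2.38, adjusted p = 0.000147 by edgeR's quasi-likelihood test). Fibro-adipogenic markers, of which 3 of 8 were at 0 in all libraries, summed to 153 to 207 CPM with vehicle. They summed to 554, 1123, 76.0 and 57.0 CPM in NAM/PN 1 to 4. Of the 2 tested genes of that list, Col1a1 was the source of the high sums, with 486 and 1032 CPM in NAM/PN 1 and 2, 3.96 and 3.27 CPM in NAM/PN 3 and 4 and 1.74 to 41.3 CPM with vehicle, and it was not called (adjusted p = 0.0709 by edgeR's quasi-likelihood test). Col3a1, the called gene of the 2, fell by 1.17 on the log2 scale without overlap, from 155 ± 7.86 to 69.2 ± 12.7 CPM (SD, n = 4, adjusted p = 0.00255 by edgeR's quasi-likelihood test). Their part in the integrin values was not tested. A fit without NAM/PN 1 and NAM/PN 2 was chosen after the data were seen. It does not test that part, since these libraries also had the highest Itga6 values. In that fit Itga3 had a log2 difference of 2.26 (adjusted p = 0.00973 by edgeR's quasi-likelihood test) and Itga6 had 0.34. Without NAM/PN 1 alone Itga6 had 0.46, and without NAM/PN 2 alone 0.91.

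Markers of differentiation differed between the conditions in the direction opposite to Itga3. Myog, the transcription factor of early differentiation, fell by 2.22 on the log2 scale (edgeR's quasi-likelihood test, adjusted p = 0.000232), from 929 ± 390 to 199 ± 74.3 CPM (SD, n = 4). Of 13 markers of differentiating muscle 8 were called lower and 0 higher, where 0.995% of all tested genes were called lower. Their summed level was 2573 to 4797 CPM with vehicle and 991 to 1851 CPM under NAM/PN. With the pool as a replicate block 10 of the 13 were called lower, Actc1 and Ttn in addition. By library, Myog had 680, 1042, 566 and 1428 CPM in vehicle 1 to 4. In NAM/PN 1 to 4 it had 108, 237, 173 and 277 CPM. For Pax7 the log2 difference was -0.18 (SE 0.22). The part that the proportion of differentiating cells had in the integrin values was not tested, and in bulk RNA a change in the number of cells of a type and a change in RNA per cell cannot be told apart.

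**Figure D3:**
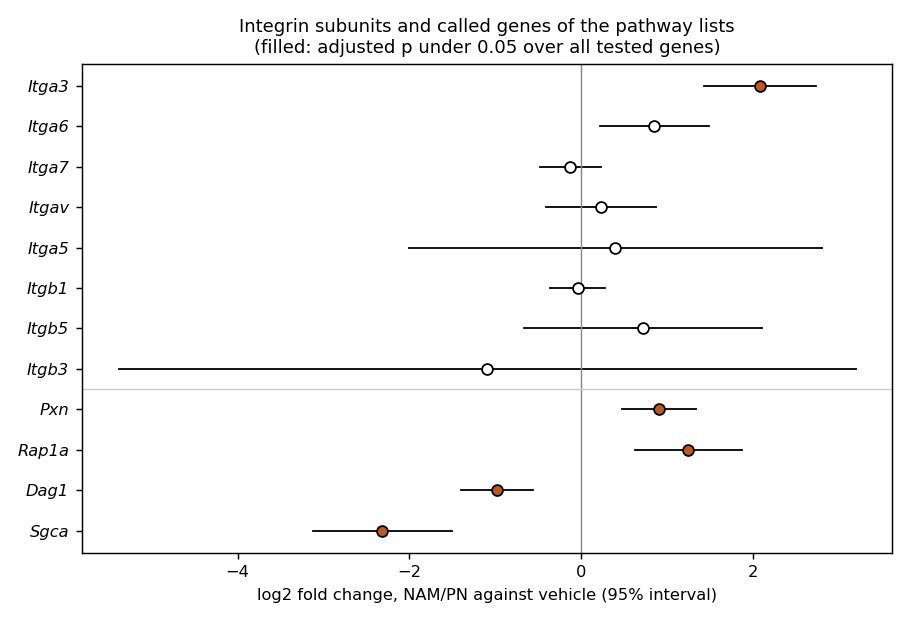
Log2 fold change with its 95% interval (horizontal axis, NAM/PN against vehicle) for the 8 tested integrin subunits, above the line, and the 4 called genes of the pathway lists, below it, with filled points for an adjusted p under 0.05. Itga3 stands at 2.09 and Sgca at -2.32, and the intervals of Itga7 and Itgb1 are narrow around 0.

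Genes on which integrins depend were read from lists written with earlier results of these data known. Of 40 activators and adaptors 36 were tested, and 2 rose and 0 fell, where 0.282% of all tested genes were called higher. The median log2 difference was -0.10 beside -0.0022 over all tested genes, and the conditions did not overlap for 3 genes higher and 3 lower under NAM/PN (2.79% and 4.42% of all tested genes). Pxn, which codes for paxillin, a scaffold of focal adhesions, had 79.3, 73.5, 70.2 and 95.9 CPM with vehicle and 128, 123, 149 and 199.8 CPM under NAM/PN. Its libraries did not overlap between conditions. Pxn rose by 0.91 on the log2 scale (SE 0.20, adjusted p = 0.0264 by edgeR's quasi-likelihood test after Benjamini-Hochberg adjustment). Rap1a, a small GTPase that recruits talin to integrins, had 27.1, 25.1, 15.7 and 19.9 CPM with vehicle and 71.6, 43.5, 40.0 and 53.4 CPM under NAM/PN, again without overlap. It rose by 1.25 on the log2 scale (SE 0.30, adjusted p = 0.0422 by edgeR's quasi-likelihood test after Benjamini-Hochberg adjustment). Both calls were near the threshold and were lost in 11 of 12 fits that left out a library or a pool. Pxn kept its call only without NAM/PN 2 (adjusted p = 0.0378 by edgeR's quasi-likelihood test) and Rap1a only without NAM/PN 3 (adjusted p = 0.0476), and the highest adjusted p was 0.178 for Pxn and 0.256 for Rap1a.

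Other receptors bind laminin beside these integrins. Of 9 genes of the dystroglycan complex and other laminin receptors 8 were tested, and 2 fell and 0 rose (0.995% of all tested genes were called lower), with a median log2 difference of -0.90. The other 6 were not called, and Mcam had a positive value of 0.24. Sgca codes for α-sarcoglycan, a muscle-specific member of the complex. It had 33.0, 35.0, 47.9 and 29.2 CPM with vehicle and 9.72, 8.78, 5.79 and 4.86 CPM under NAM/PN. Each NAM/PN library was far below every vehicle library. Sgca fell by 2.32 on the log2 scale (SE 0.39, edgeR's quasi-likelihood test, Benjamini-Hochberg adjusted p = 0.00279). Dag1 codes for dystroglycan, the laminin-binding protein itself. It had 303, 296, 228 and 347 CPM with vehicle and 148, 205, 132 and 110.5 CPM under NAM/PN, without overlap. Dag1 fell by 0.98 on the log2 scale (SE 0.20, edgeR's quasi-likelihood test, Benjamini-Hochberg adjusted p = 0.0140). That call was lost in 7 of 12 fits, those without vehicle 2, vehicle 4, NAM/PN 1, NAM/PN 3, pool 1, pool 2 or pool 4, with adjusted p up to 0.171.

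No ligand or membrane partner was called, where 1.28% of all tested genes were, so that these counts do not set the lists apart. Of 29 ligands, among them laminin chains and fibronectin, 22 were tested with a median log2 difference of -0.015, and the smallest p-value was that of Adam15, a disintegrin, with a log2 difference of 1.00 (adjusted p = 0.143 by edgeR's quasi-likelihood test). Lamb2, a laminin chain, had nearly the same p-value in the other direction, with a log2 difference of -1.34 (adjusted p = 0.144 by the same test) and no overlap (4.42% of all tested genes separated in this direction), and Thbs1, a thrombospondin, had -0.93 (adjusted p = 0.159 by the same test). Of 16 membrane partners, mainly tetraspanins and syndecans, all were tested with a median of 0.072, and Tspan4, a tetraspanin, came first with 0.49 (adjusted p = 0.338 by the same test). Of 17 other integrin subunits 8 had no count in any library and 4 were tested, with a median of -0.57. Itgb6 had the smallest p-value of these, with 9.08 ± 4.38 CPM with vehicle and 3.12 ± 1.98 CPM under NAM/PN (SD, n = 4) and an adjusted p of 0.704 by edgeR's quasi-likelihood test.

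**Figure D4:**
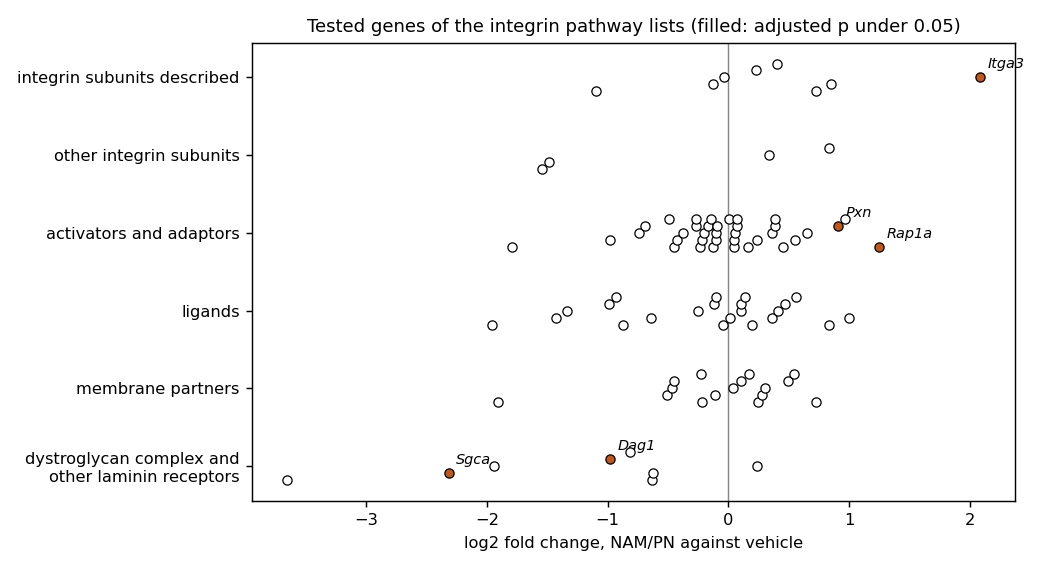
Log2 fold change (horizontal axis, NAM/PN against vehicle) of each tested gene, in rows by list, with filled and named points for an adjusted p under 0.05. The called genes were Itga3, Pxn and Rap1a to the right of 0 and Sgca and Dag1 to the left.

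The genes whose pattern over the 8 libraries was most like that of Itga3 were found by the root mean square difference of centred log2 CPM, among 8742 genes with a mean log2 CPM of at least 3. They were Nptx1 (0.446), a neuronal pentraxin, Rmi2 (0.496), a subunit of a helicase complex, Dlx2 (0.497), a homeobox factor, Cdkn2b (0.508), an inhibitor of cyclin-dependent kinases, and Blvrb (0.510), a biliverdin reductase, where the median over all compared genes was 1.14. Nptx1 had 56.2 to 86.9 CPM with vehicle and 268 to 326 CPM under NAM/PN. Blvrb had 23.7 to 35.5 and 69.0 to 105 CPM. Rmi2, Dlx2 and Cdkn2b were not called (adjusted p = 0.215, 0.0666 and 0.286 by edgeR's quasi-likelihood test). Among the members, Itga6 was nearest to Itga3 at 0.895 and Itgb5 next at 0.933, and Itgav, Itgb1, Itga7 and Itga5 were at 1.03 to 1.16. Itgb3 was the farthest at 2.17.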

How the data were processed

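For each of 8 libraries of a 3′ end kit, the authors deposited counts per gene without normalization. Per the labels and the supplement, fastq files were made with casava 1.8.2, aligned to GRCm38 with RNASTAR 2.5.3a and counted with HTSeq 2.16.2. The strand setting, annotation release and any use of molecular identifiers are not given in the sources used here, so genes that overlap on opposite strands may share reads. An age of 23 to 24 months is stated in the supplement for its MuSC proliferation assay, which differs from these cultures by a longer culture and less DMSO. For all aged mice of the study the methods give a range that ends a month later. The duration and the DMSO share given here are those of the labels. GENCODE M21 named 55141 of 55487 identifiers.

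Genes passing filterByExpr (minimum count 10, minimum total 15) were scaled by TMM and compared with edgeR 4.0.16 (glmQLFit and glmQLFTest, threshold 0.05 after Benjamini-Hochberg adjustment across the 12060 genes), the functions that the supplement gives for mouse muscle tissue, since no test is stated there for these cultured MuSCs. R 4.3.3, limma 3.58.1, DESeq2 1.42.0 and matplotlib 3.10.9 were also used. Standard errors were derived from the F statistic. The members and lists were chosen with earlier results of these data known. Named genes are the members, the called genes of each list (up to 4 by p-value) or else its smallest p, the 5 genes most like Itga3, Myog and Pax7. CT010467.1, Myod1, Acta2, Actc1, Ttn, Itgb4, Col1a1, Col3a1, Calcr, Chodl, Mcam, Lamb2, Thbs1, Rap1b and Utrn were named after their values were seen. Intervals and floors cover counting error or the spread between pools only. A pool number names the same mice in both conditions, which pairs the libraries, although deviations of libraries of a pool correlated by -0.033 to 0.031. The gene test was tested on simulated data. Alternatives were the pool as a replicate block, DESeq2, other normalizations, no filter, a robust fit, voomWithQualityWeights, a threshold of 0.10, and leaving out libraries or pools.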

Additional observations from a re-analysis of the deposited data

Results flagged for a closer look

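In 5 of 26 groups of 4 libraries, 1 library stood apart by Dixon's ratio of the gap to the nearest library over the whole range. Chance gives about 1.3 for independent groups of normal values. These groups share genes and some hold zeros, so nothing is read from the excess. Of the 5 groups, 3 were genes with counts in a single library of the condition, so the ratio was 1: Itga4 with vehicle (6 counts in vehicle 1), Itga4 with NAM/PN (10 counts in NAM/PN 2) and Itga9 with NAM/PN (14 counts in NAM/PN 2). For Itga7 with NAM/PN the ratio was 0.833, with NAM/PN 1 at 238 CPM below the other libraries at 292.6 to 303.5 CPM. For Itgb5 with NAM/PN it was 0.844, with NAM/PN 2 at 4.88 CPM below the others at 12.3 to 13.7 CPM.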

How the results depend on the processing

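Itga3 was called, and no other subunit, in all 21 alternatives, and its log2 difference was 1.77 to 2.26 (adjusted p from 4.12e-09 to 0.0231 over 20 refits by edgeR, DESeq2 or limma). The number of called subunits was 1 to 1 over the fits without a library or pool. The number of called genes of the pathway lists was 4, and 1 to 4 over those fits, with Sgca called in all 12. Without a filter on low counts it was 7, adding Lamb2, Thbs1 and Utrn, and with voomWithQualityWeights it was 5, adding Lamb2. With the pool as a replicate block it was 4 and the called subunit count 1, and the block changed no call of a member or of a gene of the pathway lists, while 10 in place of 8 of the 13 differentiating muscle markers were called lower. Over all genes, 154 were called, against 289 with DESeq2, 366 without a filter, 232 with voomWithQualityWeights, 244 at a threshold of 0.10, and 42 without pool 2. Leaving out NAM/PN 1 and NAM/PN 2 together was chosen after seeing the data. Signs turned for genes that were never called. Over the fits without a library or pool, Itgb1 ranged from -0.15 to 0.055, Itgav from -0.058 to 0.59 and Itgb3 from -1.88 to 0.64. For Itgb1 the value was 0.021 on library totals, 0.012 with voomWithQualityWeights, 0.026 without vehicle 3, 0.055 without pool 3 and 0.0057 without pool 4. For Itgav it was -0.058 without pool 1 and -0.099 without NAM/PN 1 and NAM/PN 2. For Itgb3 it was 0.24 without vehicle 3 and 0.64 without pool 3. The causes were not tested. With 4 pools per condition, intervals of low genes such as Itga5 and Itgb3 spanned more than 2-fold in both directions.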

Other observations

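Itga3 and Sgca, which differed in opposite directions, lie 68147 bases apart on the minus strand of chromosome 11 (GENCODE M21 on GRCm38). Of 11 other annotated genes within 100000 bases of Itga3, 6 were tested and 1, Sgca, was called, where 1.28% of all tested genes were called. Pdk2, a pyruvate dehydrogenase kinase gene that begins 3120 bases away, had 5.01 CPM with vehicle and 4.18 CPM under NAM/PN, and the homeobox gene Dlx3 had 5.45 and 5.12 CPM. Col1a1, at 91432 bases, had the largest log2 difference of the tested neighbours, 4.97, which was not called (adjusted p = 0.0709 by edgeR's quasi-likelihood test) and came from NAM/PN 1 and NAM/PN 2. These genes were chosen by position, after the value of Itga3 was known.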
